A study of Mus musculus with 6 samples.

Results

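The spinal dorsal horn is the region where fibres of touch, pain, heat and itch end, and its neurons release peptides beside their fast transmitters. The 10 genes described here encode the precursors of neuropeptides used there: Tac1, Tac2, Sst, Npy, Grp, Nts, Cck, Nmu, Npff and Calca. They were chosen by name, with earlier results of these data known. They were found by their Ensembl identifier among the 35275 genes of the deposited tables. All 10 were present, and all 10 passed the filter on low counts that left 16137 genes to be tested.

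RNA was prepared from spinal cord of 3 Sox2 cKO and 3 Ctrl mice of the C57BL/6 strain and measured by poly(A) bulk RNA-seq. The aim was to ask what changes in the cord when astrocytes lose SOX2. Sox2 cKO mice carried mGfap-Cre and Sox2fl/fl, so that Cre under the mouse Gfap promoter removes floxed Sox2 mainly in astrocytes. For the Ctrl mice the labels give mGfap-Cre:Sox2+/+, the series design gives either mGfap-Cre or Sox2fl/fl, and the methods of the study give Sox2fl/fl littermates. The age is postnatal day 90 in one label and postnatal day 80 in another, and both sexes were used with no record of which library had which. The tables carry numbers in place of sample names, and the columns numbered 2, 4 and 6 were read as Ctrl, those numbered 1, 3 and 5 as Sox2 cKO. Each set of 3 values of a group is given in this order of its libraries.

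A neuropeptide is made as a longer precursor, which is cut by convertases in the secretory pathway, stored in dense-core granules and released to act on G protein-coupled receptors. In the dorsal horn each peptide marks a set of interneurons, and gastrin-releasing peptide and its receptor are known for their part in itch, while substance P and CGRP are known for their part in pain. Sst, Tac1, Tac2, Grp, Nts, Cck, Nmu and Npff are mostly found in excitatory interneurons and Npy in inhibitory ones, whereas Calca is best known from primary sensory neurons and motor neurons.

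The reads counted on genes were between 21507911 and 28392184 per library. Sox2 itself was at 14.8 to 29.5 CPM (read counts scaled to library size after TMM normalization) in Ctrl and at 2.69 to 3.16 CPM in Sox2 cKO, a log2 fold change of -2.86 ± 0.24 (SE, adjusted p = 0.00096, edgeR quasi-likelihood test). The spinal HOX gene Hoxc8 was at 139 to 190 CPM in all libraries, while Hoxd10 had 0 counts. Hoxc10 had 8, 6 and 11 counts in Ctrl and 14, 18 and 36 counts in Sox2 cKO. Its log2 fold change was 1.19 ± 0.46 (SE, adjusted p = 0.082, edgeR). The groups of Hoxc10 did not overlap, and 22.6% of all genes tested were likewise higher without overlap. A difference between the groups in the level of the cord was not tested. Of the forebrain genes read here, Emx1 and Tbr1 had at most 5 counts and Neurod6 had 53 to 111, with the groups overlapping. Markers of dorsal horn neurons, such as the homeobox genes Lbx1, Lmx1b and Tlx3, were counted in every library. Ctrl library 4 and Sox2 cKO library 5 stood apart by reads on Scn10a, a sodium channel gene of primary sensory neurons, with 95 and 44 counts against 1 to 4 in the other libraries. The libraries also differed by transcript length. The sample labels put RNA integrity above 6.8 and the study's methods set a higher minimum, no value is given for a single library, and its part in the length trend was not tested. Across tested genes, Spearman's rho between length and a library's deviation from the mean of all libraries was 0.11, 0.45 and 0.38 in Ctrl, whereas it was -0.47, -0.32 and -0.38 in Sox2 cKO, so that short genes were read higher in every Sox2 cKO library than in the Ctrl libraries.

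Of the 10 neuropeptide genes, 9 were higher in Sox2 cKO at an adjusted p below 0.05, and Npff was the exception. These 9 of 10 stand beside 12.2% of all genes tested that were called higher and 12.4% that were called lower. Since the genes were chosen with earlier results of these data known, their counts are a description and not an independent test. The fold change of the called genes ran from 1.40 for Cck to 2.70 for Calca, and the median log2 fold change of the 10 genes was 0.96, against 0.02 over all genes tested. In all 10 genes the lowest Sox2 cKO library lay above the highest Ctrl library, which was so for 22.6% of all genes tested. DESeq2 called the same 9 genes higher, with 12.7% of its genes called higher. In whole tissue, more cells that make a peptide and more RNA in each such cell cannot be told apart.

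**Figure D1:**
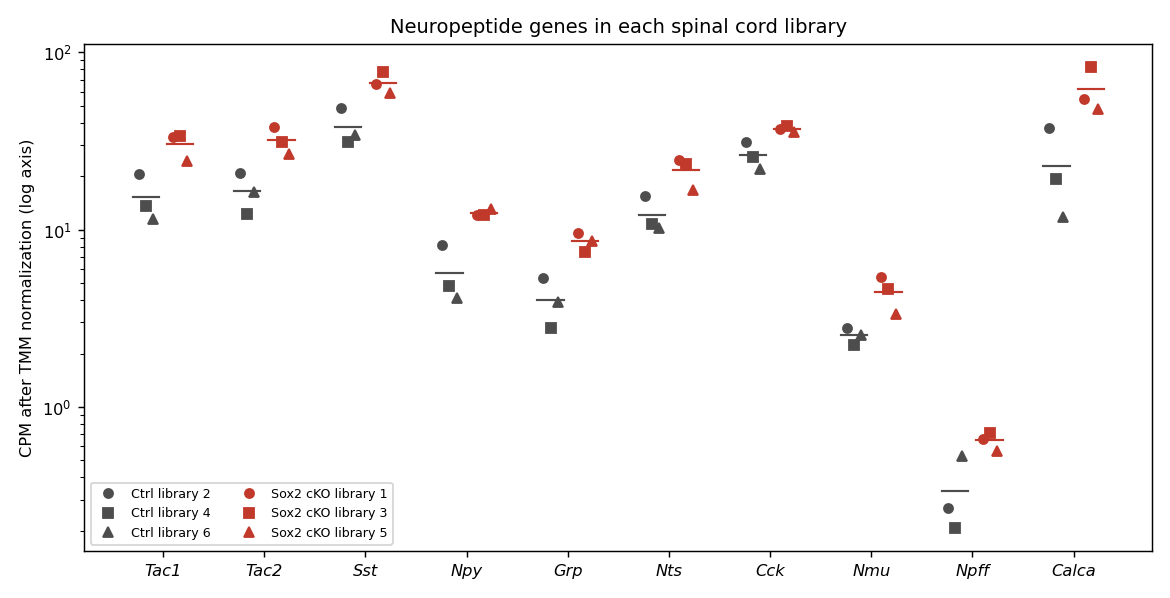
CPM after TMM normalization (vertical log axis) of the 10 neuropeptide genes in each library, with Ctrl in grey and Sox2 cKO in red. Each point is 1 library and each bar a group mean of 3 libraries. No gene has a Sox2 cKO point below its highest Ctrl point.

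Both tachykinin genes rose. Tac1 (ENSMUSG00000061762, mm10 chromosome 6, 7554879 to 7565834) encodes substance P and neurokinin A. Tac1 was at 20.5, 13.6 and 11.5 CPM in Ctrl (libraries 2, 4 and 6) and at 33.4, 33.6 and 24.3 CPM in Sox2 cKO (libraries 1, 3 and 5). The groups did not overlap, with Ctrl library 2 and Sox2 cKO library 5 the nearest to each other. The mean was 15.2 ± 4.67 CPM (SD, n = 3) in Ctrl and 30.4 ± 5.30 CPM (SD, n = 3) in Sox2 cKO, a log2 fold change of 1.001 ± 0.20 (SE, adjusted p = 0.013).

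Tac2 (ENSMUSG00000025400, chromosome 10, 127724478 to 127731768) encodes neurokinin B, the tachykinin of a separate set of excitatory interneurons. Tac2 was at 20.8, 12.3 and 16.4 CPM in Ctrl and at 37.8, 31.2 and 26.6 CPM in Sox2 cKO. Library 2 was again the highest of Ctrl and library 5 the lowest of Sox2 cKO. The log2 fold change was 0.95 ± 0.18 (SE, adjusted p = 0.013), from a mean of 16.5 ± 4.28 to 31.8 ± 5.66 CPM (SD, n = 3).

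The tachykinins share the last residues of the active peptide, followed in the precursor by a glycine, which becomes the terminal amide, and a pair of basic residues at which the precursor is cut. The stretches that encode this core are shown because they tie the 2 genes together, with the 5 codons of the core in capitals and the glycine and basic codons in lower case. They were read from GENCODE M21 transcripts on the coding strand, at chr6:7556750-7556773 and chr6:7559116-7559139 for Tac1 and at chr10:127729131-127729154 for Tac2, all within a coding exon on the plus strand.
Tac1, substance P core: TTCTTTGGATTAATGggcaagcgg
Tac1, neurokinin A core: TTTGTTGGACTAATGggcaaaaga
Tac2, neurokinin B core: TTTGTGGGACTTATGggcaagagg
Over the 15 bases of the core, the second Tac1 stretch and the Tac2 stretch differed at 2 positions, the 2 Tac1 stretches at 3 positions, and the first Tac1 stretch and Tac2 at 5 positions. The gene counts do not separate the Tac1 splice forms, which differ in whether they hold neurokinin A.

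Sst had the most reads per length of the 10 genes. Sst (ENSMUSG00000004366, chromosome 16, 23889573 to 23890958, minus strand) encodes somatostatin, an inhibitory peptide that in the dorsal horn comes mostly from excitatory interneurons. Sst was at 48.5, 31.2 and 34.1 CPM in Ctrl and at 66.2, 77.0 and 59.2 CPM in Sox2 cKO. Every Sox2 cKO library was above every Ctrl library, and the log2 fold change was 0.83 ± 0.16 (SE, adjusted p = 0.013). The final 14 codons of its coding sequence, in capitals after the pair of basic codons at which the precursor is cut, encode somatostatin-14 and lie at chr16:23889732-23889779, minus strand. They are shown because this is the released peptide itself.
Sst, somatostatin-14: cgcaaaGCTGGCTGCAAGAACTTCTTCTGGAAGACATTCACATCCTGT

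Npy (ENSMUSG00000029819, chromosome 6, 49822710 to 49829507), which encodes neuropeptide Y, was the member of the inhibitory interneurons. Npy was at 8.21, 4.82 and 4.10 CPM in Ctrl and at 12.1, 12.04 and 13.1 CPM in Sox2 cKO. The Sox2 cKO libraries were close to each other, whereas Ctrl library 2 was well above the other Ctrl libraries. The log2 fold change was 1.12 ± 0.22 (SE, adjusted p = 0.013), from a mean of 5.71 ± 2.19 to 12.4 ± 0.57 CPM (SD, n = 3).

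Grp (ENSMUSG00000024517, chromosome 18, 65872820 to 65886596) encodes gastrin-releasing peptide, a transmitter of itch. Grp was at 5.34, 2.79 and 3.91 CPM in Ctrl and at 9.57, 7.47 and 8.65 CPM in Sox2 cKO. Ctrl library 4 was the lowest, and the groups were separate. The log2 fold change was 1.09 ± 0.22 (SE, adjusted p = 0.013). The annotation places an antisense gene over the whole of Grp, and the strand setting of the counting is not given in the sources used here, so reads of that gene could be part of the Grp count.

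Nts (ENSMUSG00000019890, chromosome 10, 102481756 to 102490486, minus strand) encodes neurotensin, a peptide of deeper excitatory interneurons. Nts was at 15.5, 10.7 and 10.2 CPM in Ctrl and at 24.6, 23.5 and 16.7 CPM in Sox2 cKO. Sox2 cKO library 5 was only just above Ctrl library 2, and the log2 fold change was 0.83 ± 0.19 (SE, adjusted p = 0.016).

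Cck (ENSMUSG00000032532, chromosome 9, 121489824 to 121495694, minus strand) encodes cholecystokinin, a peptide of excitatory interneurons that take input from touch fibres. Cck was at 31.1, 25.6 and 22.1 CPM in Ctrl and at 36.7, 38.4 and 35.3 CPM in Sox2 cKO. The groups were separate but close, and the log2 fold change of 0.49 ± 0.12 (SE, adjusted p = 0.021) was the smallest of the 10 genes.

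Nmu and Npff had the fewest reads. Nmu (ENSMUSG00000029236, chromosome 5, 76333495 to 76363788, minus strand) encodes neuromedin U and had 62, 54 and 53 counts in Ctrl and 123, 136 and 89 counts in Sox2 cKO. The Ctrl libraries were alike and all lower, and the log2 fold change was 0.82 ± 0.22 (SE, adjusted p = 0.024). Npff (ENSMUSG00000023052, chromosome 15, 102523839 to 102524942, minus strand), the precursor of neuropeptide FF, had 6, 5 and 11 counts in Ctrl and 15, 21 and 15 counts in Sox2 cKO. The log2 fold change of Npff was 0.96 ± 0.42 (SE, adjusted p = 0.12), so that a difference as large as that of Tac2 was not past the threshold at this depth. A gene model on the same strand, Gm28047, covers nearly all of Npff and had 0 counts in every library, so reads that fit both could have been left out of the Npff count.

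Calca had the largest fold change and the widest spread. Calca (ENSMUSG00000030669, chromosome 7, 114631478 to 114636357, minus strand) encodes calcitonin and, by alternative splicing, the peptide CGRP, and gene counts do not separate these. Calca was at 37.5, 19.2 and 11.8 CPM in Ctrl and at 54.5, 82.5 and 48.0 CPM in Sox2 cKO. The groups did not overlap, although Ctrl library 2 was nearer to Sox2 cKO library 5 than to Ctrl library 4. The log2 fold change was 1.43 ± 0.34 (SE, adjusted p = 0.018), from a mean of 22.8 ± 13.2 to 61.7 ± 18.3 CPM (SD, n = 3).

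Since Calca is a gene of primary sensory neurons, the markers of those cells were read beside it. Calca is also known from motor neurons, whose markers are given further below. Of 10 primary sensory neuron markers, 5 passed the filter on low counts and 0 were called by edgeR or DESeq2 in either direction, with 0 at an unadjusted p below 0.05 by edgeR. Scn10a, Scn11a, Trpv1, Mrgprd and Prdm12 did not pass the filter. The summed level of the 10 markers was 13.1 to 27.3 CPM in Ctrl and 13.7 to 19.1 CPM in Sox2 cKO. Of this sum, Pou4f1 held 8.30 to 12.1 CPM in the 6 libraries. Scn10a was at 3.95 CPM in Ctrl library 4 and 1.66 CPM in Sox2 cKO library 5, and at 0.04 to 0.14 CPM in the others. Mrgprd, a receptor of the non-peptidergic fibres, had 18 counts in Ctrl library 4, 3 in Sox2 cKO library 5 and 1 in Sox2 cKO library 1. It had 0 counts in Ctrl libraries 2 and 6 and in Sox2 cKO library 3. Calca was highest in Sox2 cKO library 3, which had 4 counts of Scn10a, and next to lowest in Ctrl library 4, which had 95. The part of primary sensory neurons in the Calca result was not tested. Without Ctrl library 4 and Sox2 cKO library 5 together, the log2 fold change of Calca was 1.47 and its adjusted p was 0.081 (edgeR). Of the 10 genes, 0 were then past the threshold and 9 had an unadjusted p below 0.05, with log2 fold changes from 0.50 to 1.47, and 0.161% of all genes were called higher.

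The 6 Schwann cell markers read here, which would come with nerve roots, had 0 calls by edgeR or DESeq2. At an unadjusted p below 0.05 by edgeR there was 1. Their sum was 53.9 to 65.2 CPM in Ctrl and 51.7 to 57.1 CPM in Sox2 cKO. Most of this sum was Drp2, at 46.9 to 48.0 CPM in Ctrl and 39.2 to 43.8 CPM in Sox2 cKO. The log2 fold change was -0.22 for Drp2, -0.21 for Prx and -0.08 for Pmp2. It was 0.16 for Ncmap, 0.43 for Cldn19 and 0.48 for Egr2. After the correction for length given below, Drp2 was at 0.05. Prx, which encodes periaxin of myelinating Schwann cells, was at 11.6, 9.94 and 3.81 CPM in Ctrl, which was the order of Calca in these libraries. In Sox2 cKO it was at 8.43, 6.65 and 6.91 CPM, where Calca was highest in the library with the least Prx. The part of nerve root in the Calca result was not tested.

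**Figure D2:**
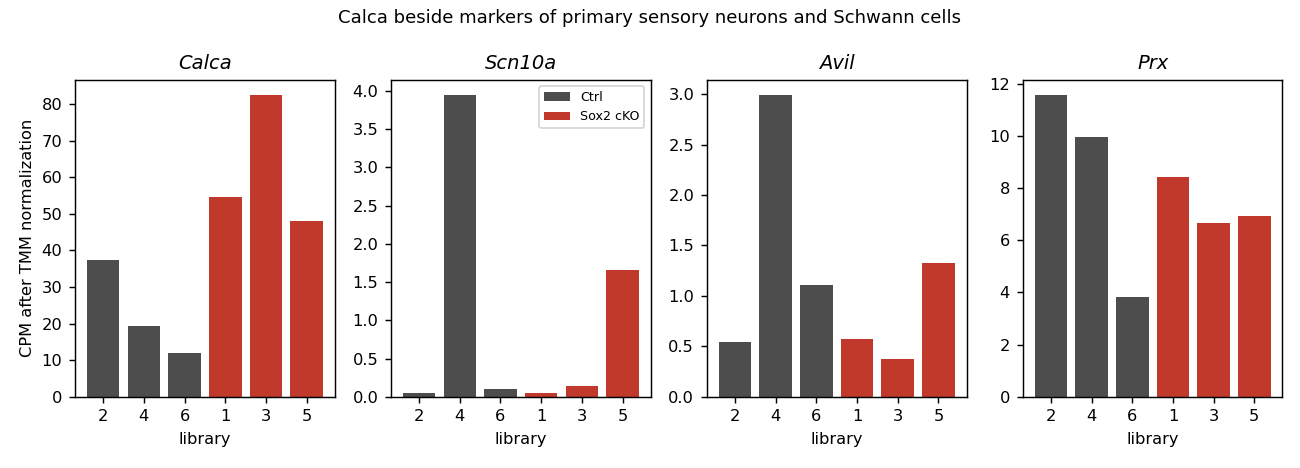
CPM after TMM normalization (vertical axes, each with its own scale from 0) of Calca, of the sensory neuron genes Scn10a and Avil and of the Schwann cell gene Prx, with 1 bar for each library. Scn10a is high in Ctrl library 4 and Sox2 cKO library 5. Avil is at 2.99 CPM in Ctrl library 4 but at 1.32 CPM in Sox2 cKO library 5, near the 1.11 CPM of Ctrl library 6. Calca is highest in Sox2 cKO library 3, at 82.5 CPM.

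The neuropeptide genes are short, and the fold changes of these libraries followed length. Lengths recovered from the deposited counts and FPKM were 566 to 1975 bases for the 10 genes, with a median of 902, against a median of 3060 over all genes tested. The tested genes were put into 5 bins of nearly equal number by length. In the bin of the shortest genes, of 66 to 1708 bases, the median log2 fold change was 0.30 and 30.4% of genes were called higher. All of the 10 genes but Tac1 are in that bin. The length of 1975 bases that the tables hold for Tac1 is that of a noncoding transcript in GENCODE M21, whose longest coding transcript of Tac1 has 1230 bases. The median log2 fold change of the other bins fell with length, through 0.15, 0.04 and -0.07 to -0.25.

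**Figure D3:**
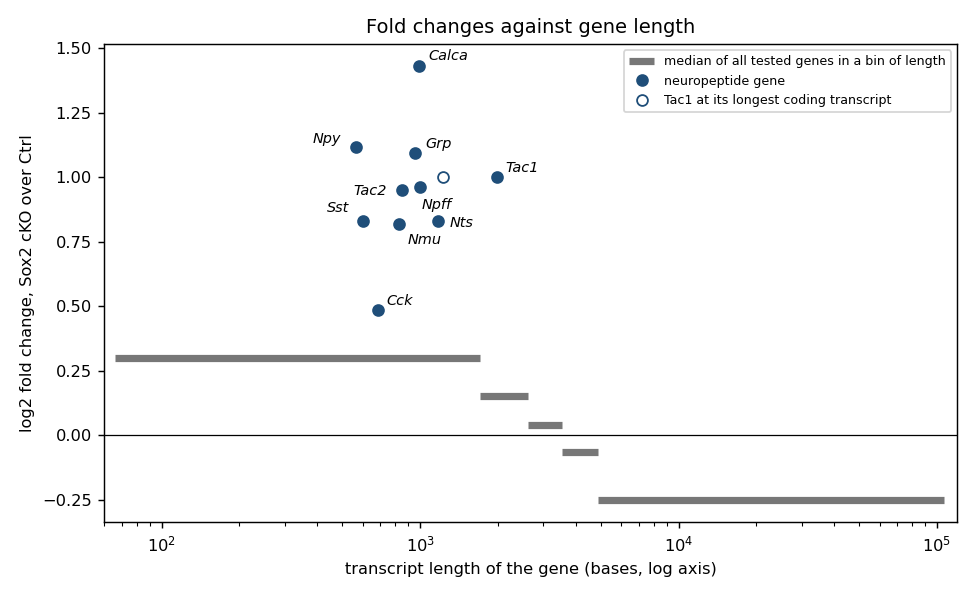
Log2 fold change of Sox2 cKO over Ctrl (vertical axis) against transcript length in bases (horizontal log axis). Grey lines are medians of all tested genes in 5 bins of length, points are the neuropeptide genes, and the open point sets Tac1 at its longest coding transcript. Cck, the lowest point at 0.49, is above the grey line of the shortest bin at 0.30, which is a single median over 66 to 1708 bases. After the correction for length given below, Cck was at 0.10.

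When each library was corrected for its trend with length, 5 of the 10 genes were called higher, beside 6.08% of all genes called higher and 6.99% called lower. The 5 were Tac1 (log2 fold change 0.84 ± 0.18 SE, adjusted p = 0.022), Grp (0.75 ± 0.19, adjusted p = 0.032), Tac2 (0.59 ± 0.14, adjusted p = 0.031), Npy (0.73 ± 0.20, adjusted p = 0.040) and Calca (1.12 ± 0.32, adjusted p = 0.046). Sst and Nts fell just outside, at 0.45 ± 0.14 (adjusted p = 0.054) and 0.53 ± 0.16 (adjusted p = 0.052). Cck lost most of its difference, with a log2 fold change of 0.10 ± 0.11 (adjusted p = 0.52), and Nmu was at 0.45 ± 0.20 (adjusted p = 0.15). The median of the 10 genes was 0.61 after the correction, against 0.00 over all genes tested. With the longest coding transcript as the length of each gene, the same 5 genes were called, with Tac1 at 0.69, and 5.47% of all genes were called higher.

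**Figure D4:**
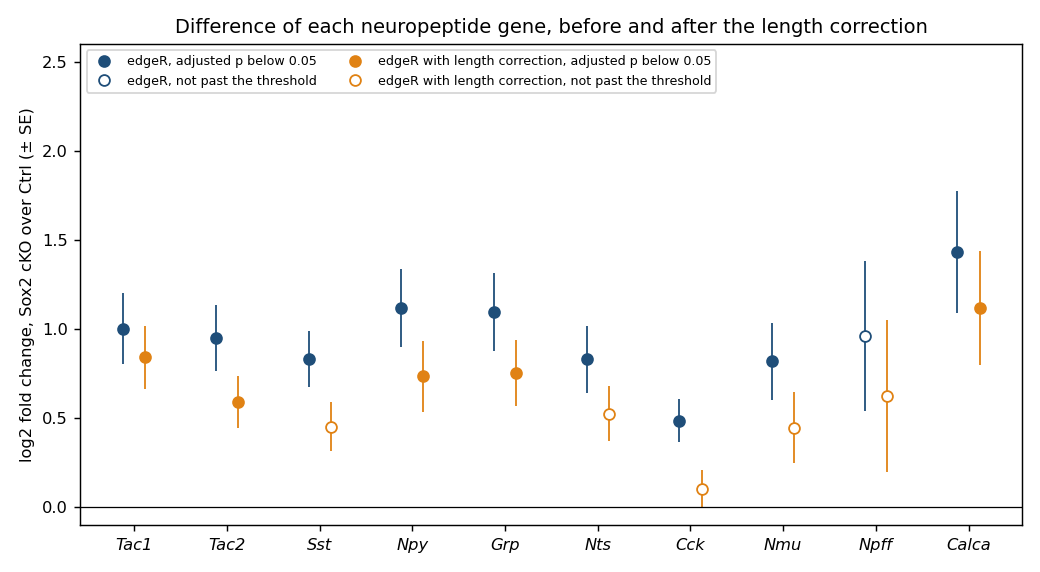
Log2 fold change of Sox2 cKO over Ctrl with its standard error (vertical axis) for each neuropeptide gene, by edgeR (blue) and by edgeR with the length correction (orange), 3 libraries a group. Filled points are past an adjusted p of 0.05. Every point lies above 0, and 9 blue and 5 orange points are filled.

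The calls also rested on single libraries. Without Ctrl library 2, in which all of these genes but Npff were the highest of Ctrl, 9 genes were called, beside 18.3% of all genes. Without Ctrl library 6 there were 6 called, beside 3.64% of all genes. Without Ctrl library 4 there were 0, beside 0.0794%. Among Sox2 cKO, 9 were called without library 5, beside 8.13%, 5 without library 3, beside 4.27%, and 0 without library 1, beside 0.0182%. In all of these 6 fits the log2 fold change of each of the 10 genes stayed positive, and the median was 0.76 to 1.10. In both fits with 0 calls, 9 of the 10 genes had an unadjusted p below 0.05. With the length correction the calls rested on single libraries even more. There were 7 without Ctrl library 2, beside 12.8% of all genes called higher, and 3 without Sox2 cKO library 5, beside 3.26%. There were 0 without Ctrl library 4, Ctrl library 6, Sox2 cKO library 1 or Sox2 cKO library 3, beside 0.0244%, 0.193%, 0.0182% and 0.11% of all genes, and 7 or 8 of the 10 genes had an unadjusted p below 0.05 in these 4 fits. Without the length correction, the adjusted p of Tac1, Tac2, Sst, Npy and Grp was at most 0.067 in any of them.

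Per length, the order of the genes was much alike in both groups. Median deposited FPKM in Ctrl was 53.6 for Sst, 35.9 for Cck, 18.7 for Calca, 18.1 for Tac2, 8.74 for Nts, 8.19 for Npy, 6.62 for Tac1, 3.87 for Grp, 2.91 for Nmu and 0.27 for Npff. In this order only Sst from Cck, Tac2 from Nts and Nmu from Npff did not overlap in range with the next gene. In Sox2 cKO the median FPKM was 117 for Sst, 58.2 for Calca and 56.7 for Cck, so that Calca and Cck had changed places, although their ranges overlapped in both groups. Npy, at 22.7 FPKM, and Nts, at 20.6 FPKM, had also changed places with overlapping ranges. Tac1 is set low in this order by the length of 1975 bases.

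The receptors of these peptides were called in both directions, and most were not past the threshold. Of 24 receptor and co-receptor genes, 20 were tested, and edgeR called 1 higher and 3 lower, the median log2 fold change being -0.03. These counts stand beside 12.2% of all genes called higher and 12.4% called lower. Tacr1, the receptor of substance P, was lower, with 17.9, 18.2 and 20.1 CPM in Ctrl and 14.2, 13.6 and 15.4 CPM in Sox2 cKO (log2 fold change -0.38 ± 0.10 SE, adjusted p = 0.026). All 3 Ctrl libraries were above all 3 Sox2 cKO libraries. Calcrl, the core of the CGRP receptor, was lower as well (-0.56 ± 0.13, adjusted p = 0.017), and so was Sort1, the sorting receptor sortilin that also binds neurotensin (-0.49 ± 0.09, adjusted p = 0.013). Tacr2, the neurokinin A receptor, was higher at a low level, with 9, 14 and 4 counts in Ctrl and 37, 25 and 25 counts in Sox2 cKO (1.49 ± 0.43, adjusted p = 0.034). Tacr3, the neurokinin B receptor (0.07 ± 0.11, adjusted p = 0.65), and Grpr, the receptor of gastrin-releasing peptide (-0.30 ± 0.23, adjusted p = 0.35), were not past the threshold. After the length correction 0 receptors were called higher and 3 lower, beside 6.08% and 6.99% of all genes. Calcrl and Sort1 were still called, Tacr1 (adjusted p = 0.12) and Tacr2 (adjusted p = 0.062) were not, and the somatostatin receptor gene Sstr1 was called lower at -0.51 (adjusted p = 0.028).

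Genes for the making and storage of peptides went both ways. All 16 were tested, with 3 called higher, 3 lower, the median log2 fold change being -0.05. Of all genes tested, 12.2% were called higher and 12.4% lower. Resp18, an endocrine secretory protein, rose from 53.2, 37.6 and 35.4 CPM in Ctrl to 88.6, 87.6 and 72.7 CPM in Sox2 cKO (0.98 ± 0.15, adjusted p = 0.012). Scg5, the chaperone of convertase 2 (0.61 ± 0.13, adjusted p = 0.015), and Pcsk1n, an inhibitor of convertase 1 (0.51 ± 0.10, adjusted p = 0.013), rose too. Cadps2, which primes dense-core granules (-0.40 ± 0.12, adjusted p = 0.035), Pam, which makes the terminal amide (-0.31 ± 0.08, adjusted p = 0.026), and the granule membrane gene Ptprn2 (-0.30 ± 0.09, adjusted p = 0.041) fell. The convertases themselves, Pcsk1 (-0.12 ± 0.10, adjusted p = 0.39) and Pcsk2 (0.06 ± 0.09, adjusted p = 0.66), were not past the threshold. The risen genes were of 748 to 2193 bases and the fallen ones of 4102 to 4969 bases. After the length correction 2 were called higher and 2 lower, beside 6.08% and 6.99% of all genes. Among them were Resp18 (0.61, adjusted p = 0.019), Pcsk1n (0.37, adjusted p = 0.021) and Pam (-0.25, adjusted p = 0.042). Scg3 was newly called lower (-0.33, adjusted p = 0.035).

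Other neuropeptide genes that passed the threshold were all higher in Sox2 cKO. Of 18 in the list 14 were tested, with 4 called higher, 0 lower, the median log2 fold change being 0.39. With a median length of 1181 bases, the list stands beside 12.2% of all genes called higher and 30.4% of the shortest bin, and 4 of 14 is close to the latter. Gal, the galanin gene, was at 2.51, 1.46 and 2.22 CPM in Ctrl and at 6.72, 7.71 and 3.13 CPM in Sox2 cKO (1.51 ± 0.33, adjusted p = 0.015). The Sox2 cKO libraries were all higher but far apart, with library 5 nearest to Ctrl. Cartpt, which encodes the CART peptides (0.90 ± 0.18, adjusted p = 0.013), Calcb, the neighbour of Calca that encodes a second CGRP (0.55 ± 0.14, adjusted p = 0.023), and Pdyn, which encodes dynorphin (0.53 ± 0.14, adjusted p = 0.024), rose by less. Penk, the enkephalin gene, was at 0.40 ± 0.15 (adjusted p = 0.080). Reads that fit both Calca and Calcb, which are alike in sequence, could have been left out of both counts. After the length correction 1 of 14 was called, which is near the 6.08% of all genes. This was Gal (1.13, adjusted p = 0.046), and the median was 0.17.

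**Figure D5:**
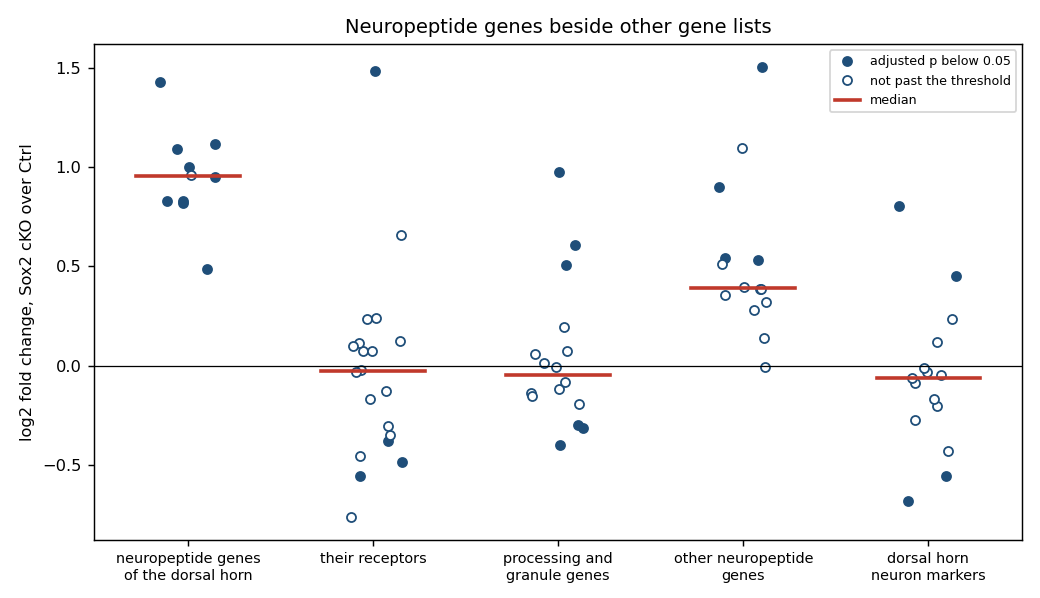
Log2 fold change of Sox2 cKO over Ctrl by edgeR (vertical axis) for each tested gene of 5 lists, 1 point a gene and a red line at the median. Filled points are past an adjusted p of 0.05. The 10 neuropeptide genes lie between 0.49 and 1.43, while the medians of their receptors, of the processing and granule genes and of the dorsal horn neuron markers lie between -0.06 and -0.03.

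Markers of the neurons that make these peptides were called in both directions. All 15 dorsal horn neuron markers were tested, with 2 called higher, 2 lower, the median log2 fold change being -0.06. Both counts are near the share of all genes tested, of which 12.2% were called higher and 12.4% lower. Their summed level was 1057 to 1087 CPM in Ctrl and 1019 to 1091 CPM in Sox2 cKO. Slc17a6, the glutamate transporter of excitatory interneurons, was at 185 to 208 CPM in Ctrl and 173 to 202 CPM in Sox2 cKO (-0.03 ± 0.09, adjusted p = 0.82). Slc32a1, the transporter of inhibitory interneurons, was at 143 to 160 CPM in Ctrl and 172 to 181 CPM in Sox2 cKO (0.24 ± 0.08, adjusted p = 0.056). Tlx3, a transcription factor of excitatory interneurons, rose (0.81 ± 0.23, adjusted p = 0.032), as did Calb2, which encodes calretinin (0.45 ± 0.11, adjusted p = 0.019). Reln, which encodes reelin (-0.69 ± 0.13, adjusted p = 0.013), and the transcription factor gene Rorb (-0.55 ± 0.15, adjusted p = 0.025) fell. After the length correction only Reln was called among these markers (-0.27, adjusted p = 0.032), beside 6.08% of all genes called higher and 6.99% lower.

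Among 7 motor neuron markers, 0 were called higher and 1 lower, namely Slc18a3, the vesicular transporter of acetylcholine (-0.46 ± 0.13, adjusted p = 0.029). This stands beside 12.2% of all genes called higher and 12.4% called lower. The summed level of the motor neuron markers was 495 to 535 CPM in Ctrl and 518 to 520 CPM in Sox2 cKO. The part of motor neurons in the Calca result was not tested. Among 10 pan-neuronal markers 3 were called higher and 1 lower, beside the same shares of all genes. Their summed level was 7521 to 8346 CPM in Ctrl and 8698 to 8947 CPM in Sox2 cKO. The largest difference among the called genes was that of Uchl1, a ubiquitin hydrolase of neurons, at 0.76 ± 0.13 (adjusted p = 0.012) and 0.46 after the length correction (adjusted p = 0.023). After the correction 3 of the 10 were called higher and 0 lower, beside 6.08% and 6.99% of all genes. The noncoding gene Snhg11 went from 0.49 to 0.70 (adjusted p = 0.018) and the synaptic gene Snap25 from 0.35 to 0.48 (adjusted p = 0.040). The part of a general difference in neuronal RNA in the neuropeptide result was not tested.

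The 250 bases before the transcript start were searched in RefSeq windows (GRCm38.p6) for 8 of the 10 genes. TGACGTCA, the site of the cAMP response factor CREB, which is known from work on the Sst promoter, was held by the window of Sst alone among the 8, and by 1.55% of all 32851 windows. The shorter TGACG, or CGTCA on the other strand, which is part of the full site, was held by 6 of the 8, those of Sst, Tac1, Calca, Cck, Nts and Nmu, and by 17.8% of all windows. CAAAG, or CTTTG on the other strand, a core that SOX factors bind and whose reverse form can share its last letters, TG, with the start of TGACG, was held by 6 of the 8 and by 48.6% of all windows. All 8 genes were called higher before the length correction, so the calls do not set the 6 holders of TGACG apart. The sites of TGACG or CGTCA are shown with 8 bases on each side. The motif is in capitals and each sequence is on the strand of its gene.
Sst, chr16:23890877-23890900, minus strand: tccttggcTGACGTCAgagagaga
Tac1, chr6:7554856-7554876, plus strand: taaaattgCGTCAtttcgaac
Tac1, chr6:7555010-7555030, plus strand: tacaggctCGTCAcgcctgag
Calca, chr7:114636410-114636430, minus strand: cacagaggTGACGcaatctgt
Cck, chr9:121495729-121495749, minus strand: ctggactgCGTCAgcactggg
Nts, chr10:102490572-102490592, minus strand: gggaagatCGTCActttccat
Nmu, chr5:76363879-76363899, minus strand: ggtccgggTGACGccagggag
Counted back from the RefSeq start, the site begins at position -48 in Sst, -43 and -197 in Tac1, -65 in Calca, -47 in Cck, -114 in Nmu and -166 in Nts. For Sst, Tac1, Nts and Nmu this start lies inside the gene positions given above from GENCODE. The site of Sst and the site at -43 of Tac1 therefore fall within those positions. The windows of Tac2 and Npy held neither form. After the length correction Tac1 and Calca of the 6 holders were still called, as were both Tac2 and Npy. The whole window is shown for Calca, the gene with the largest fold change (chr7:114636358-114636607, minus strand), and for Npy, the next largest of the 8, which holds no such site (chr6:49822460-49822709, plus strand).
Calca: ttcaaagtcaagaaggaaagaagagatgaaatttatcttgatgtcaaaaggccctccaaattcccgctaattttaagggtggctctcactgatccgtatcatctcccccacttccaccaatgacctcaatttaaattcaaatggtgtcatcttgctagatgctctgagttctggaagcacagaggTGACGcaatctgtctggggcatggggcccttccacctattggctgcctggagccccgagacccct
Npy: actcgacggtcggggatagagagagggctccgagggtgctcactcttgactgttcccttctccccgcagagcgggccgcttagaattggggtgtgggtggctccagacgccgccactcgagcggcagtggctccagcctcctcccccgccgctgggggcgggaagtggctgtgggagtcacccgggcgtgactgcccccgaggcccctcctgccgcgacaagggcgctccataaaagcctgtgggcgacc
A match of letters is a description of the window and does not show that a factor binds there.

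Among all tested genes, those most like Calca across the 6 libraries were C9orf72, Tvp23b, Impa2, Snrnp48 and BC022960, by Pearson's r of log2 CPM of 0.996 to 0.998, which is a description over 6 points that share depth and the length trend. Their own differences were mostly smaller, with a log2 fold change of 0.25 for C9orf72, 0.36 for Tvp23b, 0.22 for Impa2 and 0.48 for Snrnp48. BC022960 was at 1.26.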

How the data were processed

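Poly(A) RNA of 6 spinal cords was sequenced on strand-marking libraries. Per the study's methods and the labels, the authors aligned reads to mm10 with STAR 2.5 and counted them with HTSeq 0.6.1. The deposited tables hold raw counts per gene and FPKM values derived from these counts by the authors; the authors' own comparison columns hold fold changes and p-values and were not used. Columns were assigned by their last digit, which matches the mouse numbers of the study's protein blot; the group means recomputed from them matched all 1999 genes for which the authors list group means (relative tolerance 0.001), and 0 matched with groups exchanged. Which library is which labelled replicate is unknown, and nothing states how mice map to batches.

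The test of the counts was that of edgeR 4.0.16 in R 4.3.3 (filterByExpr, TMM, quasi-likelihood, no covariate, Benjamini-Hochberg over all 16137 genes, threshold 0.05), where every adjusted p in the text comes from unless another tool is named. Single-gene permutation tests of 3 against 3 cannot go below p = 0.1. The length correction entered a lowess curve (span 0.3) per library as an offset. Alternatives were DESeq2 1.42.0, limma 3.58.1 on log2(FPKM + 1) and log2(FPKM + 0.1) where the mean FPKM reached 0.5, upper quartile normalization, no filter, at least 10 counts in every library, a GC correction and leaving out libraries. The fits were checked on simulated data. Names and positions came from GENCODE M21 (34490 of 35275 identifiers matched), promoter windows from RefSeq. Genes named outside the 10 were, from each list, up to 4 called genes with the largest change and up to 2 related ones. Scn10a, Mrgprd, Avil, the Schwann cell genes, the HOX genes and the forebrain genes were named after their values were seen. So were Snap25, Sstr1, Scg3, the further processing genes, Lbx1 and Lmx1b. The 10 genes and the lists were chosen with earlier results of these data known. Some listed marker genes are not reported here.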

Additional observations from a re-analysis of the deposited data

How the results depend on the processing

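All 10 neuropeptide genes stayed higher in Sox2 cKO under every alternative that tested them. Their calls did not: 9 became 5 with the length correction and with the correction by the longest coding transcript, 0 without Ctrl library 4 and Sox2 cKO library 5 together, 0 to 9 when 1 library was left out, and 0 to 7 when 1 was left out with the length correction, where 4 of the 6 fits called 0. The other settings kept 9 calls; Npff was filtered out by limma and by the minimum of 10 counts. Of receptors, 4 were called by edgeR, 2 by limma with either pseudocount, 0 without both libraries, and 0 to 4 with 1 left out. Of processing genes, 6 were called by edgeR, 3 by limma with either pseudocount and 0 without both libraries. With 1 library left out 0 to 6 were called, and 0 to 9 when the length correction was added. Of other neuropeptide genes, 4 were called by edgeR, 7 without a filter, 1 with the length correction, 2 by the longest coding transcript, 1 without both libraries, and 0 to 8 with 1 left out. The length correction bears on these numbers by construction, since it removes each library's length trend. For the fits without both libraries, for limma and for the missing filter the cause was not tested. With Ctrl library 4 alone left out, 26 genes were called in all, and with Ctrl library 2 alone left out, 6119 were. The combined fits, the longest coding transcript and the pair of libraries left out were chosen after seeing the data. Genes called in all were 3970 by edgeR, 2109 with the length correction, and 8 to 6119 with 1 library left out. No paired analysis was possible because the columns carry no replicate numbers of the labels. Depth limits Npff, with 5 to 21 counts.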
